A study of Homo sapiens with 36 samples.

Results

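Each experiment in this series had its own culture control, and 2 of those controls are set against each other here. MEC-1, the only line used, is an immortal human cell line grown from the B cells of chronic lymphocytic leukaemia (CLL). The control cells were given a scrambled LNA gapmer, a short antisense oligonucleotide with no intended target RNA, which they took up without a transfection reagent (gymnosis). The controls of the RP11-161H23.5 experiment (3 arrays, called RP11-161H23.5 scrambled) were compared with the controls of the CYTOR experiment (3 arrays, called CYTOR scrambled). These 6 arrays were chosen by their titles and not by any measured value, and they are 6 of 36 arrays in 12 groups. The scrambled arrays of the LINC00158 experiment (3 arrays) shared the statistical fit and are given beside them. All these groups share the cell line, the medium (RPMI-1640 with 10% heat-inactivated fetal bovine serum), the dose of 1 µM of each gapmer and the 4 days of exposure. The labels do not say whether the 3 arrays of a group came from separate cultures, so the p-values measure only the spread between these arrays, which may be technical. Nor do they say whether the scrambled gapmer had the same sequence in each experiment.

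A gapmer recruits RNase H to the RNA it pairs with, and the enzyme then cuts that RNA. A scrambled gapmer gives cells the same chemistry without a matched target, so it sets the level from which a knockdown is read. In a malignant B cell, the B-cell receptor, NF-kB, integrins and chemokine receptors govern survival and homing, and control cultures that differ in such genes give each experiment a different starting level.

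The values are log2 signals, so a difference of 1 is a doubling of signal. Array medians over all 135750 units ran between 4.01 and 4.09. The median SD over tested units was 0.275 in RP11-161H23.5 scrambled, 0.282 in LINC00158 scrambled and 0.328 in CYTOR scrambled (n = 3 each). All 5 B-cell markers with a unit (MS4A1, CD79A, CD79B, PAX5 and CD74) were well above the array median, at 8.7 or more on every scrambled array. Markers of T and NK, myeloid, erythroid and platelet, and stromal and epithelial cells had median levels between 3.63 and 5.31 in all 3 groups, and none was called different between RP11-161H23.5 scrambled and CYTOR scrambled. Single markers were bright: COL1A1 averaged 8.56 in RP11-161H23.5 scrambled and 7.87 in CYTOR scrambled, MNDA 8.07 in RP11-161H23.5 scrambled and 7.13 in CYTOR scrambled, and CD3E 7.42 in RP11-161H23.5 scrambled and 6.44 in CYTOR scrambled. Of these only MNDA, a myeloid and B-cell nuclear protein, had groups that did not overlap (adjusted p = 0.195). Other markers went the other way. CDH1 averaged 4.81 in RP11-161H23.5 scrambled and 6.08 in CYTOR scrambled, and GZMB 5.24 and 5.95 (limma adjusted p = 0.0922 and 0.203). All RP11-161H23.5 arrays lay below all CYTOR arrays for 3 of 8 tested T and NK markers and 2 of 10 stromal and epithelial markers (15.5% over all named genes). GZMK, a cytotoxic lymphocyte gene outside these lists, was called higher and is given among the named genes. The part of other cell types in the results was not tested. The summed level of the myeloid markers was 8.84 to 9.45 in RP11-161H23.5 scrambled and 8.47 to 8.85 in CYTOR scrambled, and that of the T and NK markers 8.64 to 9.26 in RP11-161H23.5 scrambled and 8.60 to 8.89 in CYTOR scrambled (log2 of the summed signals). In RNA pooled over a culture, fewer cells of a type and less RNA per cell cannot be told apart.

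Of 67878 units tested with limma, 193 were called higher in RP11-161H23.5 scrambled than in CYTOR scrambled (0.284%), and 847 were called lower (1.25%), at a Benjamini-Hochberg adjusted p under 0.05. Among 12904 protein-coding genes, 53 were higher (0.411%) and 309 lower (2.39%), and all RP11-161H23.5 arrays lay above all CYTOR arrays for 5.73% and below them for 19.2%. Calls were more frequent among bright genes. Of the 4755 expressed protein-coding genes, those with a mean of at least 7 over the 9 scrambled arrays, 32 were higher (0.673%) and 255 lower (5.36%). The median difference of these expressed genes was -0.27, against -0.06 over all tested units, so part of each bright gene's negative difference was shared by bright genes in general. After quantile normalization of the 9 arrays that median became -0.01, and the calls were 356 higher and 531 lower. The counts depended on single arrays. Without RP11-161H23.5 replicate 3 the fit called 25 higher and 107 lower, without RP11-161H23.5 replicate 2 it called 45 and 181, and without CYTOR replicate 2 it called 63 and 192.

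In the same fit LINC00158 scrambled against CYTOR scrambled gave 0 calls with limma, with 6602 of 67878 units at an unadjusted p under 0.05 (9.73%), against 11271 (16.6%) for RP11-161H23.5 scrambled against CYTOR scrambled. RP11-161H23.5 scrambled against LINC00158 scrambled gave 852 units higher (1.26%) and 2673 lower (3.94%). These comparisons share control arrays and are given side by side only.

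The gapmer-treated arrays of the same experiments share no array with the scrambled ones. The 9 treated RP11-161H23.5 arrays were set against the 9 treated CYTOR arrays, a comparison chosen after values were seen, in which the groups also differ in the RNA targeted. Of the 193 units called higher in RP11-161H23.5 scrambled, 183 were also on the higher side in the treated RP11-161H23.5 arrays (94.8%, against 55.2% of all tested units). Of the 847 called lower, 814 were also on the lower side there (96.1%, against 44.8% of all tested units). The median difference of the higher units was 1.67 in treated arrays and 1.48 in scrambled arrays, and that of the lower units was -1.46 in treated arrays and -1.48 in scrambled arrays. By the share of identical values between arrays, the treated arrays of each experiment appear to have been normalized apart from each other and from the scrambled arrays. Levels across these sets are therefore read only relative to the other genes.

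The differences were arranged along chromosomes. Most human genes lie beside genes of unrelated function, with the histone clusters of chromosome 6 as a well-known exception. The 4755 expressed protein-coding genes were put in chromosome order and cut into 226 windows of 20 consecutive genes (up to 39 at a chromosome's end), a description chosen after values were seen and given without a test. The median difference of a window, relative to the median of all these genes, ran from -1.20 to 0.81. Windows at -0.5 or below, or at 0.5 or above, formed 7 stretches, 5 of them lower in RP11-161H23.5 scrambled and 2 higher. This choice set the direction of each stretch between the RP11-161H23.5 and CYTOR scrambled arrays. It also favoured the same direction against LINC00158 scrambled, since the same RP11-161H23.5 arrays enter both comparisons. In the plot of windows along the chromosomes the stretches stand as runs of neighbouring bars on chromosomes 6, 7, 9, 10 and 18.

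**Figure D1:**
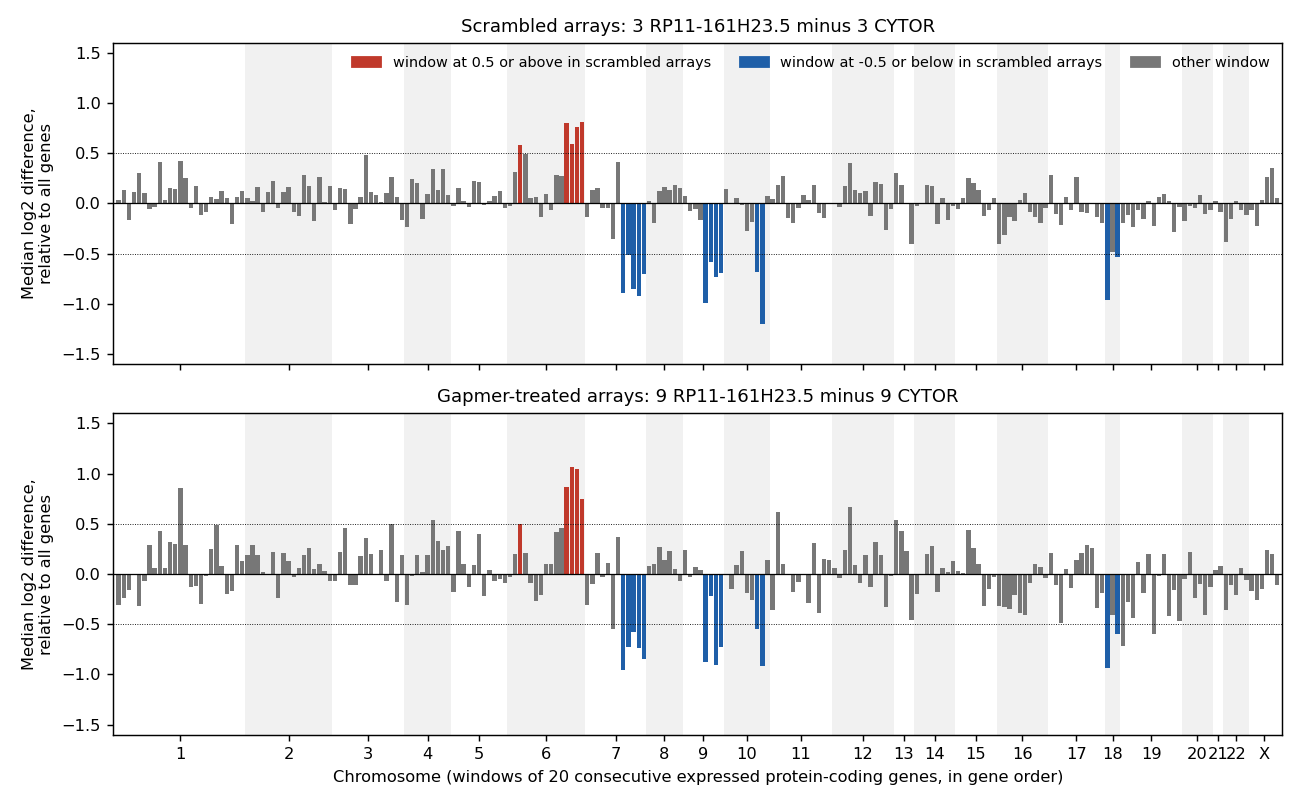
Median log2 difference of each window of 20 consecutive expressed protein-coding genes, relative to all such genes, along the chromosomes in gene order. The upper panel gives RP11-161H23.5 scrambled minus CYTOR scrambled (3 arrays each) and the lower panel the treated arrays of the same experiments (9 each), with bars coloured by the upper panel; chromosomes 7, 9, 10 and 18 hold the windows below -0.5, and the end of chromosome 6 holds those with the highest values.

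The longest lower stretch covered 101 expressed genes on chromosome 7, from CYP51A1 to LMBR1. Its median difference was -1.04, or -0.77 relative to all expressed genes. Of its 101 genes, 98 had a negative difference, where the median of all expressed genes was itself negative (-0.27). All RP11-161H23.5 arrays lay below all CYTOR arrays for 69 of them (28.8% over all expressed genes). In this stretch 24 genes were called lower (5.36% over all expressed genes). The window just before it, from MDH2 to AKAP9, had a relative median of 0.41. Relative to all genes, the level of this stretch was -0.45, -0.45 and -0.41 on the RP11-161H23.5 arrays, 0.05, 0.13 and 0.20 on the LINC00158 arrays, and 0.22, 0.33 and 0.27 on the CYTOR arrays. All RP11-161H23.5 arrays thus lay below the other 6, a direction set for the CYTOR arrays and favoured for the LINC00158 arrays by the choice of stretches.

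On chromosome 9, 97 expressed genes from FAM120AOS to ARRDC1 had a median difference of -0.97 (relative median -0.70). In this stretch 93 genes were negative and 25 were called lower (5.36% over all expressed genes). Its level was -0.52, -0.31 and -0.48 on the RP11-161H23.5 arrays, 0.09, 0.22 and 0.18 on the LINC00158 arrays, and 0.18, 0.34 and 0.31 on the CYTOR arrays. Here too the RP11-161H23.5 arrays lay below the other 6, with the same limit from the choice of stretches.

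On chromosome 10 the lower stretch had 2 clear sides. The 40 expressed genes from TNKS2 to BBIP1 had a median difference of -1.06 (relative median -0.79). All 40 genes of the stretch were negative, with 16 called lower (5.36% over all expressed genes). The window before it (ZSWIM8 to PCGF5) had a relative median of -0.19 and the window after it (SHOC2 to PAOX, 36 genes) one of 0.07. The level was -0.66, -0.49 and -0.53 on the RP11-161H23.5 arrays, 0.27, 0.33 and 0.20 on the LINC00158 arrays, and 0.25, 0.20 and 0.45 on the CYTOR arrays.

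Every window of chromosome 18 had a median below that of all expressed genes. The median difference of its 73 expressed genes was -0.99, or -0.73 relative to all expressed genes. The stretch from USP14 to CABLES1 (20 genes) had a median of -1.23 with 6 called lower (5.36% over all expressed genes). The stretch from SMAD2 to ADNP2 (33 genes) had a median of -0.80 with 8 called lower. Of its genes, 66.7% lay below the median of all expressed genes. The 20 genes between these stretches (SLC35D4 to IER3IP1) had a median of -0.75, or -0.48 relative to all genes, just inside the threshold. In the USP14 to CABLES1 stretch the level was -0.61, -0.52 and -0.46 on the RP11-161H23.5 arrays, 0.18, 0.20 and 0.29 on the LINC00158 arrays, and 0.51, 0.22 and 0.34 on the CYTOR arrays.

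The higher side was led by the end of chromosome 6, where the 82 expressed genes from CCNC to PDCD2 had a median difference of 0.50 (0.76 relative to all genes). Of these, 71 were positive, 31 had all RP11-161H23.5 arrays above all CYTOR arrays (5.62% over all expressed genes), and 6 were called higher (0.673% over all expressed genes). Against LINC00158 scrambled the median difference was -0.04 before all genes were taken into account, so the separation from those arrays is a relative one. The level was 0.40, 0.46 and 0.45 on the RP11-161H23.5 arrays, -0.19, -0.23 and -0.13 on the LINC00158 arrays, and -0.24, -0.30 and -0.31 on the CYTOR arrays. The other higher stretch, 20 genes of the chromosome 6 histone cluster from H4C4 to H2AC13, behaved differently. Its relative median was 0.58 with 0 genes called by limma, and its level was -0.10, 0.46 and 0.42 on the RP11-161H23.5 arrays, -0.16, 0.35 and 0.04 on the LINC00158 arrays, and -0.96, -0.19 and -0.20 on the CYTOR arrays. There the RP11-161H23.5 and LINC00158 arrays overlapped, and CYTOR replicate 1 lay lowest.

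**Figure D2:**
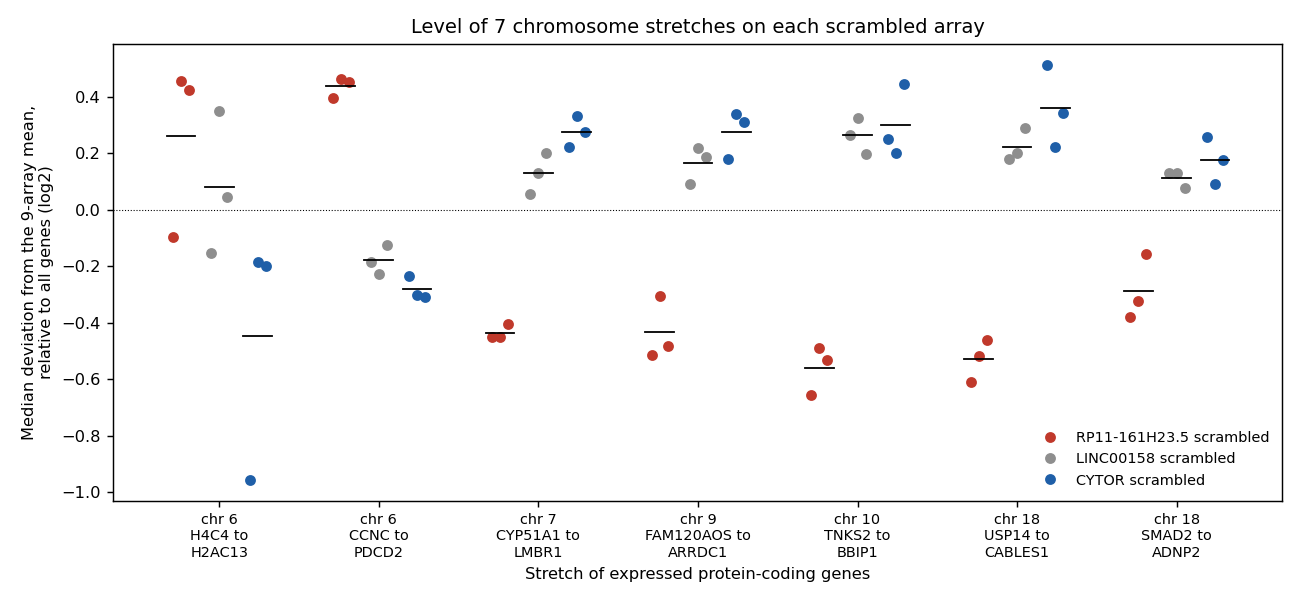
Level of the 7 stretches on each of the 9 scrambled arrays, as the median log2 deviation of a stretch's genes from their 9-array mean relative to all expressed genes; points are arrays and black lines group means of 3. Outside the histone cluster (H4C4 to H2AC13), the RP11-161H23.5 arrays lie on one side of all LINC00158 and CYTOR arrays in every stretch. The direction between RP11-161H23.5 and CYTOR arrays was set by the choice of stretches, which also favoured the same direction against the LINC00158 arrays.

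Together the lower stretches held 291 of the 4755 expressed genes (6.12%) and 79 of the 255 lower calls (31.0%). Within them 27.1% of the genes were called lower, against 4.03% of the expressed genes outside every stretch. The higher stretches held 102 expressed genes (2.15%) and 6 of the 32 higher calls (18.8%). These shares describe the calls, since the stretches were drawn from the same differences. Most calls lay elsewhere: 176 lower and 26 higher calls among expressed genes were outside every stretch. After quantile normalization 52 of 125 lower calls (41.6%) lay in the lower stretches. That share was 26.9% with the 75th percentile filter and 48.3% with the 6 compared arrays alone. The higher stretches held 0 of 12 higher calls with the 6 arrays alone. They held 0 of 15 without RP11-161H23.5 replicate 2 and 0 of 8 without RP11-161H23.5 replicate 3.

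The same stretches were read in all 36 arrays. In the chromosome 7 stretch the level was -0.49 to -0.38 over the 9 treated RP11-161H23.5 arrays, 0.08 to 0.19 over the 9 treated LINC00158 arrays and 0.25 to 0.42 over the 9 treated CYTOR arrays. In the chromosome 10 stretch it was -0.63 to -0.40 in treated RP11-161H23.5 arrays, 0.02 to 0.29 in treated LINC00158 arrays and 0.25 to 0.44 in treated CYTOR arrays. For CCNC to PDCD2 on chromosome 6 the treated RP11-161H23.5 arrays lay at 0.42 to 0.69, the treated LINC00158 arrays at -0.25 to -0.0046 and the treated CYTOR arrays at -0.51 to -0.34. In each of the 6 stretches other than the histone cluster, all 12 arrays of the RP11-161H23.5 experiment, scrambled and treated, lay on one side of all 24 arrays of the other experiments. The stretches were drawn from the RP11-161H23.5 and CYTOR scrambled arrays, so the direction between those arrays was set in advance. The direction between RP11-161H23.5 scrambled and LINC00158 scrambled was favoured by the same choice. What lies behind the separation of the experiments was not tested.

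**Figure D3:**
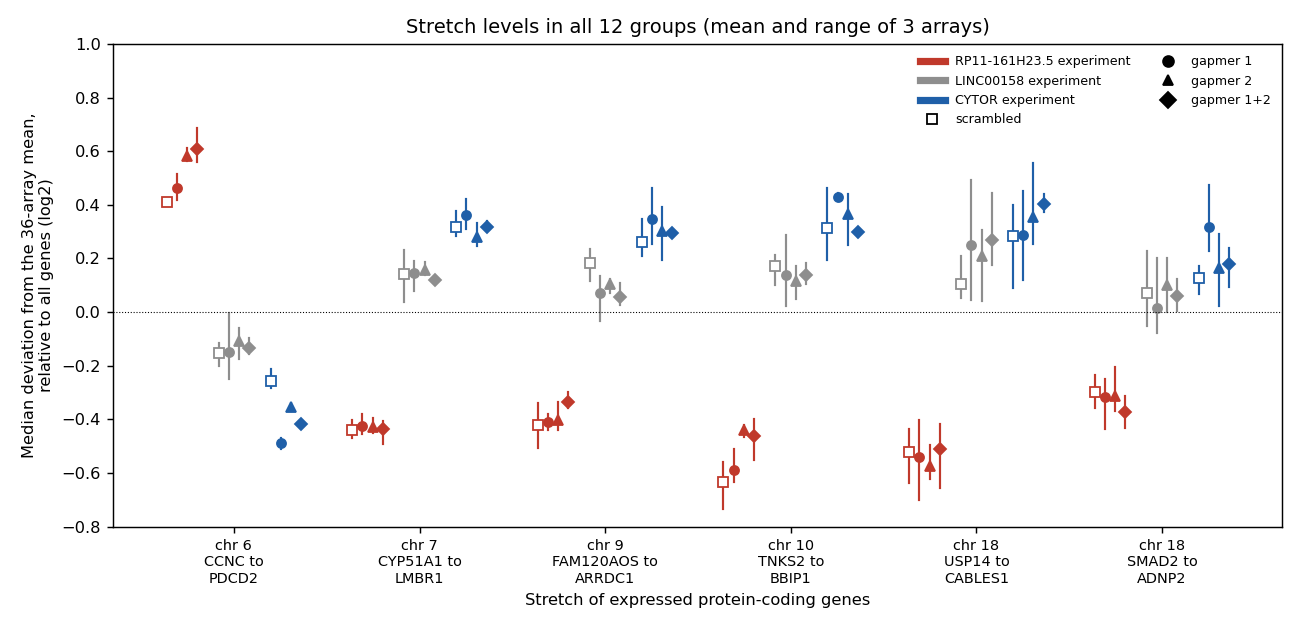
Level of 6 stretches in all 12 groups, as the median log2 deviation from the 36-array mean relative to all expressed genes; markers are group means and lines the range of 3 arrays. The 4 groups of the RP11-161H23.5 experiment lie together and apart from the 8 groups of the LINC00158 and CYTOR experiments, whichever gapmer was given. The direction between RP11-161H23.5 scrambled and CYTOR scrambled was set by the choice of stretches, which also favoured the same direction against LINC00158 scrambled.

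In all, 96 protein-coding genes inside the stretches were called, dim ones included, and those given next were named after their values were seen. In the chromosome 7 stretch they included HIPK2, a nuclear kinase of the p53 pathway, with a difference of -1.69 (limma adjusted p = 0.0107). NAMPT, the rate-limiting enzyme of NAD salvage, differed by -1.78 (limma adjusted p = 0.0299). ATP5MF, a subunit of mitochondrial ATP synthase, differed by -1.43 (limma adjusted p = 0.0087). In the chromosome 9 stretch, SURF4, a cargo receptor of the endoplasmic reticulum, differed by -1.86 (limma adjusted p = 0.0112), and ABL1, a tyrosine kinase, by -1.39 (limma adjusted p = 0.0193). In the chromosome 10 stretch, GOT1, an aspartate aminotransferase, differed by -2.44 (limma adjusted p = 0.0092), and SCD, the stearoyl-CoA desaturase, by -1.63 (limma adjusted p = 0.0274). In the chromosome 18 stretches, LMAN1, a cargo receptor for secreted glycoproteins, differed by -2.06 (limma adjusted p = 0.0103), and TNFRSF11A, the receptor RANK of the NF-kB pathway, by -1.68 (limma adjusted p = 0.048). In the CCNC to PDCD2 stretch, MPC1, a mitochondrial pyruvate carrier subunit, was higher by 1.41 (limma adjusted p = 0.0158).

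Of the 96, 13 kept their call whichever of the 9 arrays was left out, ATP5MF and GOT1 among them, and 68 kept it after quantile normalization. HIPK2, SURF4 and LMAN1 lost it without RP11-161H23.5 replicate 3 alone. NAMPT, ABL1, SCD, TNFRSF11A, MPC1, AFDN and POLR2J lost it without RP11-161H23.5 replicate 3 and without at least 1 other array. With each array left out in turn, TNFRSF11A kept its call in 1 of 9 fits and NAMPT in 3. SCD, AFDN and POLR2J kept theirs in 4, ABL1 in 5 and MPC1 in 7. After quantile normalization ABL1, TNFRSF11A and POLR2J were not called. None of the 96 differences moved by over 1.5 times under the settings run. A difference of group means could move only under quantile normalization, centring, or leaving out an RP11-161H23.5 or CYTOR array.

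For some genes of that chromosome 6 stretch the separate control was CYTOR scrambled. MPC1 averaged 13.46 in RP11-161H23.5 scrambled, 13.51 in LINC00158 scrambled and 12.05 in CYTOR scrambled. AFDN, an adherens junction protein, averaged 7.75 in RP11-161H23.5 scrambled, 7.84 in LINC00158 scrambled and 6.42 in CYTOR scrambled, with a difference of 1.33 (limma adjusted p = 0.0272). In the chromosome 7 stretch, by contrast, POLR2J, a subunit of RNA polymerase II, averaged 12.69 in RP11-161H23.5 scrambled, 13.86 in LINC00158 scrambled and 13.86 in CYTOR scrambled.

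Outside the stretches, the most positive difference of a called protein-coding gene was that of ITGB1, the integrin beta-1 chain with which B cells hold to fibronectin and VCAM-1. Its log2 signal was 11.48, 11.71 and 11.67 in RP11-161H23.5 scrambled, 8.26, 8.63 and 8.92 in LINC00158 scrambled, and 8.62, 7.86 and 8.16 in CYTOR scrambled. The difference was 3.41 ± 0.24 (SE, limma adjusted p = 0.00223), and the groups did not overlap.

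TXNIP, which binds thioredoxin and restrains glucose uptake, had 13.83, 14.20 and 13.72 in RP11-161H23.5 scrambled, 11.04, 11.77 and 11.61 in LINC00158 scrambled, and 9.98, 10.76 and 11.15 in CYTOR scrambled (difference 3.29 ± 0.32 SE, limma adjusted p = 0.00489). CD38, an NAD-consuming surface enzyme and an adverse prognostic marker in CLL, had 10.71, 9.90 and 10.45 in RP11-161H23.5 scrambled, 8.61, 7.20 and 8.31 in LINC00158 scrambled, and 7.74, 7.14 and 7.72 in CYTOR scrambled (difference 2.82 ± 0.38 SE, limma adjusted p = 0.0143). In both genes the RP11-161H23.5 arrays were high and the LINC00158 and CYTOR arrays overlapped or lay close together.

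ROBO1, a receptor for Slit guidance proteins, showed another order. It had 13.06, 12.70 and 12.61 in RP11-161H23.5 scrambled, 12.08, 11.83 and 12.17 in LINC00158 scrambled, and 10.23, 10.20 and 10.26 in CYTOR scrambled. Its difference was 2.56 ± 0.18 (SE, limma adjusted p = 0.00223), and CYTOR scrambled stood lowest. The other 8 of the 12 most positive called genes without overlap between the groups were OGFRL1 (2.94), GPR63, an orphan G protein-coupled receptor (2.44), DNAJC5B, a J-domain protein (2.39), RAVER2, an RNA-binding protein (2.39), RIMS2, a protein of presynaptic release sites (2.35), HACD4, a fatty acid elongation enzyme (2.25), KPNA5, an importin alpha (2.22, inside the CCNC to PDCD2 stretch), and GZMK, granzyme K (2.18). Their adjusted p-values ran from 0.00611 to 0.0485.

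The most negative differences were those of 3 genes in the chromosome 7 stretch. NRCAM, a cell adhesion molecule of the immunoglobulin superfamily, had 7.37, 6.99 and 6.63 in RP11-161H23.5 scrambled, 11.49, 9.53 and 9.86 in LINC00158 scrambled, and 10.51, 10.71 and 10.59 in CYTOR scrambled (difference -3.61 ± 0.45 SE, limma adjusted p = 0.0108). HBP1, an HMG-box repressor of cell cycle genes, had 7.13, 7.34 and 7.26 in RP11-161H23.5 scrambled, 8.86, 8.33 and 8.62 in LINC00158 scrambled, and 10.76, 10.73 and 10.36 in CYTOR scrambled (difference -3.37 ± 0.20 SE, limma adjusted p = 0.00145). For HBP1 the 3 control groups lay at 3 separate levels, with LINC00158 scrambled in the middle.

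DNAJB9, a co-chaperone of the endoplasmic reticulum, followed with 8.65, 8.82 and 8.78 in RP11-161H23.5 scrambled, 10.47, 10.78 and 10.53 in LINC00158 scrambled, and 11, 12.59 and 12.66 in CYTOR scrambled (difference -3.33 ± 0.39 SE, limma adjusted p = 0.0093). These differences were larger than the stretch's own median of -1.04.

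Among genes on other chromosomes, IGHA1, MYRF and TMPRSS3 were near the array median in RP11-161H23.5 scrambled and above it in the other scrambled groups. IGHA1, the constant region of the IgA1 heavy chain, had 3.41, 4.18 and 4.20 in RP11-161H23.5 scrambled, 6.85, 7.07 and 7.14 in LINC00158 scrambled, and 7.34, 7.02 and 7.10 in CYTOR scrambled (difference -3.22 ± 0.24 SE, limma adjusted p = 0.00223). MYRF, a transcription factor known from myelinating glia, had 3.94, 3.54 and 3.80 in RP11-161H23.5 scrambled, 6.87, 6.63 and 6.89 in LINC00158 scrambled, and 6.86, 7.44 and 6.76 in CYTOR scrambled (difference -3.26 ± 0.22 SE, limma adjusted p = 0.00223). TMPRSS3, a membrane serine protease, averaged 4.16 ± 0.12 in RP11-161H23.5 scrambled, 6.30 in LINC00158 scrambled and 7.08 ± 0.29 in CYTOR scrambled (SD, n = 3 each). The near-background level of the RP11-161H23.5 arrays limits how well the size of these differences is known.

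DTX1, a Notch-regulated E3 ligase of B cells, had 6.12, 5.54 and 6.57 in RP11-161H23.5 scrambled, 9.28, 8.35 and 8.98 in LINC00158 scrambled, and 8.59, 9.98 and 9.15 in CYTOR scrambled (difference -3.16 ± 0.40 SE, limma adjusted p = 0.0112). DUSP5, a nuclear phosphatase that switches off ERK, lies in the chromosome 10 stretch and had 9.46, 8.38 and 8.76 in RP11-161H23.5 scrambled, 12.05, 11.84 and 12.15 in LINC00158 scrambled, and 12.01, 11.76 and 11.93 in CYTOR scrambled (difference -3.03 ± 0.27 SE, limma adjusted p = 0.00321). ETV5, an ETS factor induced by ERK, had 9.97, 9.57 and 10.80 in RP11-161H23.5 scrambled, 14.34, 13.52 and 13.42 in LINC00158 scrambled, and 13.56, 12.73 and 12.71 in CYTOR scrambled (difference -2.89, limma adjusted p = 0.0142). The other 3 of the 12 were LYPD6B (-2.87), LIPH, a lipase that makes lysophosphatidic acid (-2.83), and IL18R1, a subunit of the interleukin-18 receptor (-2.80).

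**Figure D4:**
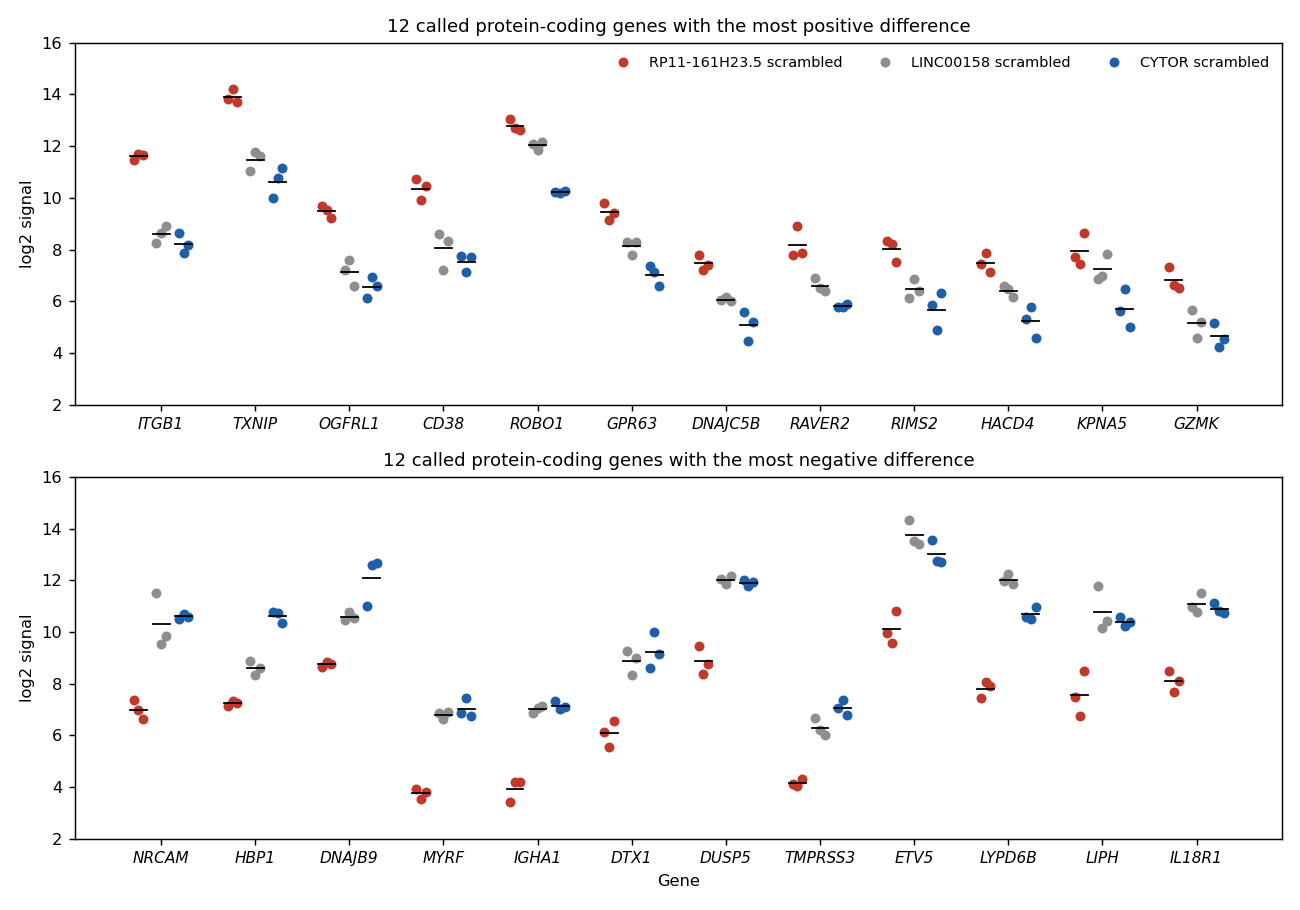
log2 signal of the 12 called protein-coding genes with the most positive and the 12 with the most negative difference, on each scrambled array; points are arrays and black lines group means of 3. In all 24 genes the RP11-161H23.5 arrays do not overlap the CYTOR arrays, since this was part of the rule. The LINC00158 arrays lie wholly between them in ROBO1, GPR63, DNAJC5B, RAVER2, HACD4, HBP1, DNAJB9 and TMPRSS3.

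Of the 73 called genes that the rule for named genes picked, 20 kept their call whichever of the 9 arrays was left out: ITGB1, TXNIP, OGFRL1, ROBO1, GPR63, DNAJC5B, RAVER2, HBP1, DNAJB9, MYRF, IGHA1, DTX1, DUSP5, TMPRSS3, LYPD6B, IL18R1, MTCYBP3, LOC100129034, SNORD36C and OLMALINC. The other 53 lost it without at least 1 array. With each array left out in turn, KPNA5 kept its call in 0 of 9 fits, LIPH in 2 and GZMK in 3. RIMS2 kept its call in 5, CD38 and HACD4 in 7, and NRCAM and ETV5 in 8. All of these are among the most positive or most negative protein-coding genes given above. None of the 73 differences moved by over 1.5 times under the settings run.

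Gene groups were read against the share called over all 21349 named genes, 79 higher (0.37%) and 360 lower (1.69%), and against the median difference of all named genes, -0.08. Many list members are bright, and the share called among expressed protein-coding genes was higher, 0.673% higher and 5.36% lower, with a median difference of -0.27. A list with about 5% of its members lower, or a median near -0.27, is therefore close to the bright genes in general. The lists were written by function with earlier results of these data known, and ERK and Notch were added after values were seen. After quantile normalization 56 of the 73 calls held, and those lost included MX1, MX2, MALT1, CD37, KLF6, ATF3, PPP1R15A, RFXANK, CCNB2, NOLC1, RPL12, DNAJB1, HSPE1, PFKP, SRSF7 and TRA2B.

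Of 20 NF-kB subunits and targets, RELB, a subunit of the non-canonical pathway, was lower by 1.59 in RP11-161H23.5 scrambled (limma adjusted p = 0.0331). The list's median difference was -0.74 (-0.66 after quantile normalization), and 10 of the 20 had all RP11-161H23.5 arrays below all CYTOR arrays (15.5% over all named genes and 28.8% over expressed protein-coding genes). Of 18 B-cell receptor signalling genes, MALT1, a paracaspase that relays receptor signals to NF-kB, and BLNK, an adaptor below the receptor, were lower (-1.67, limma adjusted p = 0.0351, and -1.43, limma adjusted p = 0.0154). MALT1 lies in a chromosome 18 stretch and BLNK in the chromosome 10 stretch. The median of the list was -0.24, -0.16 without stretch genes, and 0.04 after quantile normalization.

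Of 20 immediate early and activation genes, 4 were lower, namely DUSP5, KLF6, ATF3 and PPP1R15A, with differences of -3.03, -1.45, -1.35 and -1.25. KLF6 and ATF3 are transcription factors of the early stress and growth response, and PPP1R15A restores translation after stress. KLF6 had 9.19, 9.02 and 8.91 in RP11-161H23.5 scrambled, against 9.79, 10.78 and 10.90 in CYTOR scrambled (limma adjusted p = 0.0487). The ERK and Notch lists were added after values were seen, so their counts and medians only describe their members. In the ERK list, 2 of 13 genes were lower, DUSP5 and ETV5, and the median was -0.53. DUSP5, ETV5 and DTX1 of the Notch list are among the 12 most negative genes given above. In the Notch list of 7 genes DTX1 was lower and HEY2, a transcriptional repressor induced by Notch, was higher by 2.06 in RP11-161H23.5 scrambled (limma adjusted p = 0.0236). HEY2 lies in the CCNC to PDCD2 stretch and had 9.06, 9.49 and 9.36 in RP11-161H23.5 scrambled, against 6.41, 7.73 and 7.60 in CYTOR scrambled.

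Identity and homing genes were mostly not called. Of 20 B-cell identity genes, CD37, a tetraspanin, was lower by 1.23 in RP11-161H23.5 scrambled (limma adjusted p = 0.025). Among 13 plasma cell genes and 10 CLL surface markers CD38 was the only one called. Of 19 chemokine and homing genes, ITGB1 was higher and S1PR2, a sphingosine 1-phosphate receptor that keeps B cells in germinal centres, was lower by 1.69 (limma adjusted p = 0.0297). None of 15 MHC class I genes was called, nor were TAPBP (-0.78, adjusted p = 0.247) and TAP2 (-0.68, adjusted p = 0.208), its members with the largest differences. Of 17 MHC class II genes, RFXANK, a subunit of the factor that drives them, was lower by 1.09 (limma adjusted p = 0.0344), and the median of the list was -0.05, or 0.25 after quantile normalization.

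Of 32 interferon response genes, 2 were lower, the antiviral GTPases MX1 and MX2. MX1 had 12.96, 12.49 and 13.06 in RP11-161H23.5 scrambled, against 14.10, 14.29 and 14.28 in CYTOR scrambled (difference -1.39, limma adjusted p = 0.0217). MX2 differed by -1.12 (limma adjusted p = 0.0345). The list's median was -0.15, and 0.02 after quantile normalization. None of 15 nucleic acid sensors was called. MAVS, the mitochondrial adaptor of RNA sensing, had 10.45, 10.45 and 10.64 in RP11-161H23.5 scrambled, against 8.70, 9.46 and 8.88 in CYTOR scrambled, with an adjusted p of 0.0565. None of 18 genes of RNase H and antisense oligonucleotide binding was called, and their largest differences were those of LRPPRC (-1.16, adjusted p = 0.101) and PSPC1 (-1.05, adjusted p = 0.101).

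Several genes of the endoplasmic reticulum and of stress responses were lower. The share called lower was 1.69% over all named genes and 5.36% over expressed protein-coding genes. It was 16.7% in the unfolded protein response list, 10.7% in the integrated stress response list and 8.33% in the heat shock and proteasome list. ATF3, DNAJB1 and HSPE1 were not called after quantile normalization. Of 24 unfolded protein response genes 4 were lower: DNAJB9, SEC61B and SEC61A1, subunits of the Sec61 translocon, and HSPA5, the chaperone BiP. HSPA5 had 11.99, 11.79 and 12.09 in RP11-161H23.5 scrambled, against 12.99, 13.74 and 13.61 in CYTOR scrambled (difference -1.49, limma adjusted p = 0.0276). SEC61A1 had 7.62, 7.58 and 7.49 in RP11-161H23.5 scrambled, against 8.68, 9.40 and 9.04 in CYTOR scrambled (difference -1.48, limma adjusted p = 0.0181). Of these 4, SEC61A1 alone lies outside every stretch. Of 28 integrated stress response genes, 3 outside the stretches were lower: SLC7A5 and SLC3A2, the partner chains of a large amino acid transporter, with differences of -1.41 and -1.32, and ATF3. Of 24 heat shock and proteasome genes, the chaperones DNAJB1 (-2.37) and HSPE1 (-0.97) were lower. DNAJB1 spread widely in CYTOR scrambled, at 8.31, 9.02 and 10.32, against 7.03, 6.50 and 7.01 in RP11-161H23.5 scrambled. No oxidative stress gene of 16, metallothionein or zinc transport gene of 9, or iron gene of 8 was called. SOD1, the cytosolic superoxide dismutase, had a difference of -1.09 (adjusted p = 0.102), and MT2A, a metallothionein, one of -0.87 (adjusted p = 0.223).

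Growth and division lists pointed in different directions. Of 19 MYC targets and ribosome biogenesis genes, NOLC1, a nucleolar phosphoprotein in the chromosome 10 stretch, and SRM, spermidine synthase, were lower (-1.88 and -1.22), and the median was -0.63. Of 48 cytosolic ribosomal protein genes, RPL35 and RPL12 were lower, and both lie in the chromosome 9 stretch. RPL35 had 16.90, 17.19 and 16.83 in RP11-161H23.5 scrambled, against 17.94, 18.22 and 18.02 in CYTOR scrambled (difference -1.09, limma adjusted p = 0.0246). The median of the whole ribosomal list was -0.01. Of 34 mitosis genes, CCNB2, a B-type cyclin, was lower by 1.01 (limma adjusted p = 0.0325), although the median of the list was 0.25. In this list 8 genes had all RP11-161H23.5 arrays above all CYTOR arrays (6.38% over all named genes, 5.62% over expressed protein-coding genes). The reverse held for 4 genes (15.5% over all named genes, 28.8% over expressed protein-coding genes). Of 37 DNA replication genes, POLD1, a DNA polymerase subunit, was lower by 1.26 (limma adjusted p = 0.0351). None of 41 replication-dependent histone genes was called. Their median difference was 0.47, and H4C4 had 11.76, 12.85 and 12.43 in RP11-161H23.5 scrambled, 13.24, 13.57 and 13.13 in LINC00158 scrambled, and 10.05, 11.79 and 11.35 in CYTOR scrambled.

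In metabolism, PFKP, a phosphofructokinase, was the only one of 24 glycolysis and hypoxia genes called, lower by 1.44 (limma adjusted p = 0.035). The list's median was -0.51 (-0.38 after quantile normalization). All RP11-161H23.5 arrays lay below all CYTOR arrays for 14 of the 24 (15.5% over all named genes and 28.8% over expressed protein-coding genes). Of 19 cholesterol biosynthesis genes, CYP51A1, the sterol demethylase at the start of the chromosome 7 stretch, was lower by 2.02 (limma adjusted p = 0.0141). None of 33 oxidative phosphorylation genes was called, and the largest differences were those of NDUFB8 (-1.77, adjusted p = 0.0564) and NDUFV2 (-1.44, adjusted p = 0.0976), subunits of complex I that lie on chromosomes 10 and 18. None of 23 lysosome and autophagy genes was called, with MAP1LC3B, an autophagosome protein, at -1.31 (adjusted p = 0.0592) and WIPI1, another autophagy protein, at -1.11 (adjusted p = 0.128).

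Of 27 splicing factors 3 were lower, TRA2A (-1.51), SRSF7 (-1.49) and TRA2B (-1.06), all SR-type proteins outside the stretches. TRA2A had 12.71, 12.57 and 12.33 in RP11-161H23.5 scrambled, against 13.76, 14.20 and 14.18 in CYTOR scrambled (limma adjusted p = 0.016). Between the treated arrays, across separately normalized sets, the difference of TRA2B was 0.52, beside a median of -0.39 for expressed protein-coding genes. Of 18 p53 targets, TP53INP1, a p53-induced nuclear protein, was lower by 2.21 (limma adjusted p = 0.0107). Of 25 BCL2 family and caspase genes, BID, a pro-apoptotic BH3 protein, was lower by 1.48 (limma adjusted p = 0.0171). Of 11 circadian clock genes, BHLHE41, a transcriptional repressor, was lower by 1.38 (limma adjusted p = 0.0181).

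**Figure D5:**
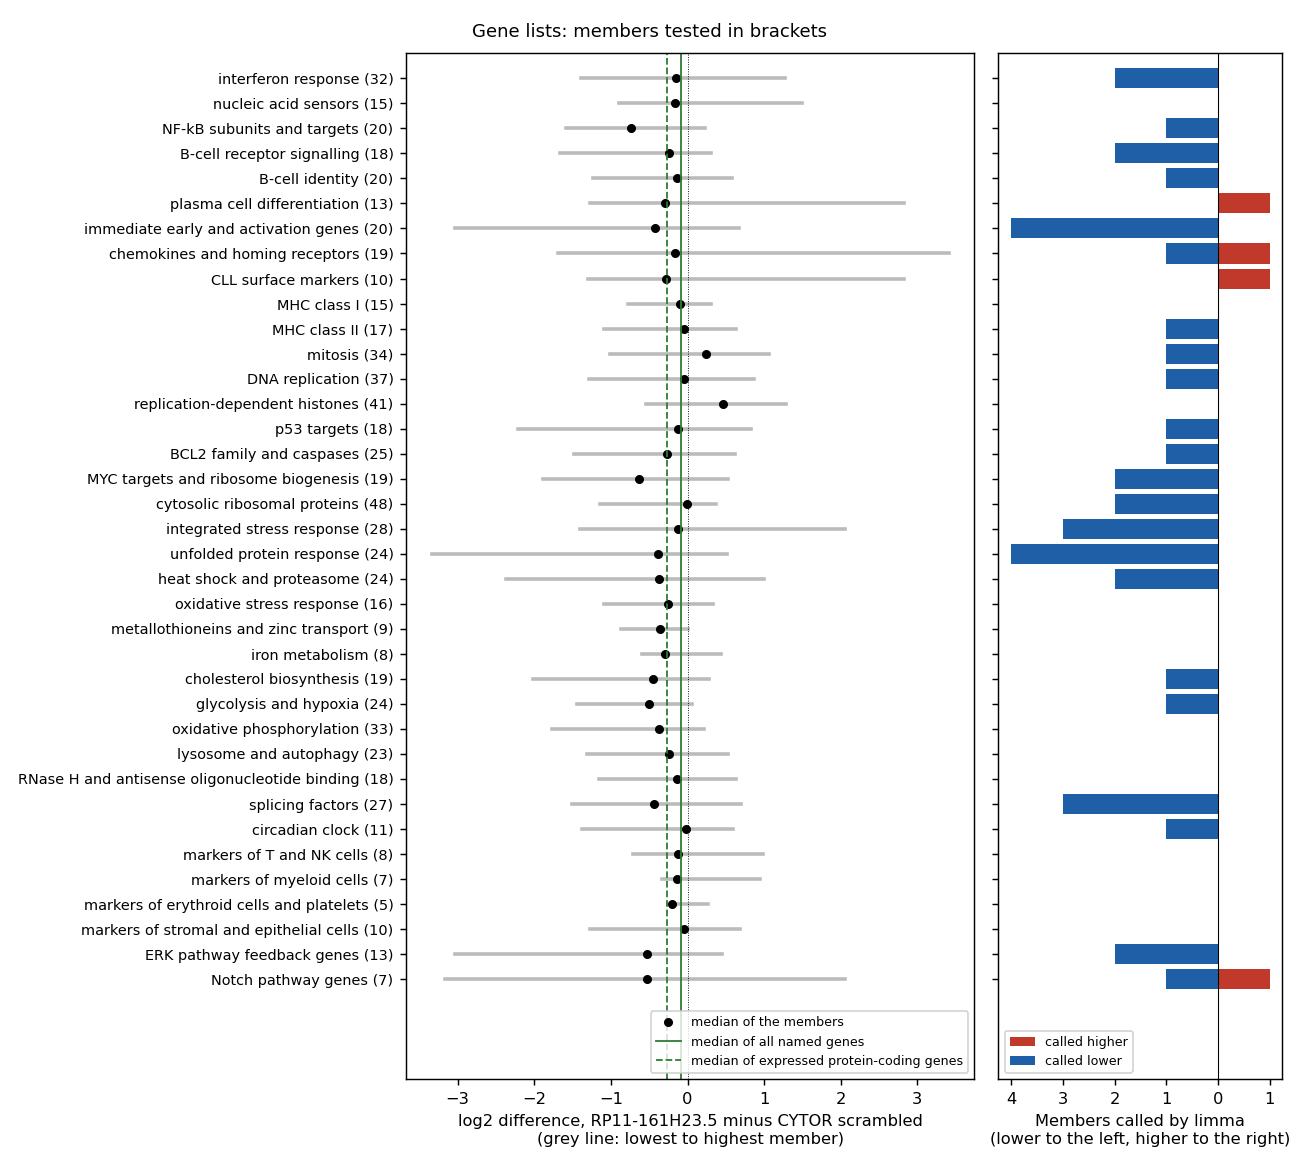
Left, median log2 difference (RP11-161H23.5 scrambled minus CYTOR scrambled) of each gene list with the range of its members, beside the medians of all named and of expressed protein-coding genes; right, members called lower (left of 0) and higher. Most list medians lie between -0.5 and 0, NF-kB has the lowest at -0.74, and histones and mitosis are the lists above 0.

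Non-coding units gave the widest single difference. 4 of the 8 most positive ones carry a miRNA gene's name, and their mature sequences are shown with the seed, bases 2 to 8, in capitals, since these letters set which messages a miRNA can pair with. The sequences are RefSeq's (GRCh38.p14), and the units are read from total RNA, so which mature arm is present was not analysed here.
hsa-miR-4740-3p: gCCCGAGAggauccgucccugc
hsa-miR-4740-5p: aGGACUGAuccucucgggcagg
hsa-miR-885-3p: aGGCAGCGggguguaguggaua
hsa-miR-885-5p: uCCAUUACacuacccugccucu
hsa-miR-4499: aAGACUGAgaggaggga
hsa-miR-1282: uCGUUUGCcuuuuucugcuu
No whole seed is shared between these 6, but those of hsa-miR-4740-5p and hsa-miR-4499 differ only in their first base.

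The MIR4740 unit, on chromosome 17, had 11.64, 12.48 and 12.46 in RP11-161H23.5 scrambled, 5.40, 5.71 and 6.27 in LINC00158 scrambled, and 9.22, 6.07 and 5.96 in CYTOR scrambled. The difference was 5.11 ± 0.76 (SE, limma adjusted p = 0.0197), and CYTOR replicate 1 stood above the other CYTOR arrays. MIR885 on chromosome 3 had 8.60, 8.57 and 8.62 in RP11-161H23.5 scrambled, against 7.30, 6.69 and 6.25 in CYTOR scrambled (difference 1.85, limma adjusted p = 0.018). MIR1282 on chromosome 15 had 10.63, 10.93 and 11.23 in RP11-161H23.5 scrambled, against 9.26, 9.11 and 9.20 in CYTOR scrambled (difference 1.74, limma adjusted p = 0.0197). MIR4499 on chromosome 13 differed by 1.77 (limma adjusted p = 0.0223). Between the treated RP11-161H23.5 and treated CYTOR arrays, which appear to have been normalized apart, the differences were 9.40, 2.94, 1.88 and 1.97 for MIR4740, MIR885, MIR1282 and MIR4499, beside a median of 0.01 over all named genes in that comparison. None of the 4 kept its call with every array left out in turn.

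Small nucleolar RNAs guide the chemical modification of ribosomal RNA. SNORD36C, in the chromosome 9 stretch, had 9.72, 10.04 and 9.99 in RP11-161H23.5 scrambled, 12.85, 12.58 and 12.40 in LINC00158 scrambled, and 11.70, 12.62 and 12.63 in CYTOR scrambled (difference -2.40 ± 0.27 SE, limma adjusted p = 0.00871). SNORD41 on chromosome 19 differed by -2.79 (limma adjusted p = 0.0411). The long non-coding RNAs LOC100129034 in the chromosome 9 stretch and OLMALINC in the chromosome 10 stretch differed by -2.50 and -2.26 (limma adjusted p = 0.00578 and 0.00744). The remaining called non-coding units named by the rule are pseudogenes of U6, U4, mitochondrial and other genes, whose probes may also read their near-identical copies, so their values are uncertain. They were RNU6-496P (2.93), NBEAP1 (1.79), RNU6-850P (1.78), HIGD1AP1 (1.68), MTCYBP3 (-3.59), RNU6-1157P (-2.76), RNU4-24P (-2.39) and MTND5P2 (-2.22).

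Among the RNAs targeted in the series, CYTOR had 4.93, 4.68 and 4.84 in RP11-161H23.5 scrambled, 6.57, 6.40 and 5.66 in LINC00158 scrambled, and 5.25, 5.27 and 5.51 in CYTOR scrambled. The difference of -0.53 ± 0.24 was not called (SE, limma adjusted p = 0.323), although the groups did not overlap. LINC00158 had 7.46, 6.38 and 6.57 in RP11-161H23.5 scrambled, 8.80, 7.50 and 7.51 in LINC00158 scrambled, and 7.73, 6.29 and 7.25 in CYTOR scrambled (difference -0.29, limma adjusted p = 0.815), and these groups overlapped. RP11-161H23.5 was not analysed here.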

How the data were processed

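RNA of MEC-1 cells was measured on Affymetrix arrays. The deposited values are log2 signals, made by the authors with RMA; per the submitters' processing notes the software was Affymetrix Expression Console. Versions, genome build and whether arrays were summarised jointly are not stated in the sources used here. Values have a ceiling of 19.93. Arrays give no read depth, and 3 arrays a group limit the precision.

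Testing was limited to units whose mean over the 9 scrambled arrays reached 4.01, the all-unit median (67878 of 135750). 3 group means were fitted with limma 3.58.1 (lmFit and eBayes, R 4.3.3; 6 residual and 3.11 prior degrees of freedom), two-sided, with Benjamini-Hochberg adjustment over all tested units. The fit was tested on simulated data.

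Symbols came from the array's annotation (36176 units with 1 symbol, 1119 with several, 98455 with none); the brightest unit of a symbol was used. RefSeq (GRCh38.p14) gave class, chromosome and gene order (25516 units matched by gene ID and 9899 by symbol). The rule for named genes took the targets, the 12 most positive and 12 most negative protein-coding and 8 and 8 non-coding called units without overlap between groups, and up to 4 called members per list (the 2 largest differences where none was called). The members, 35 lists and rules were chosen with earlier results of these data known; stretches, treated arrays and 2 further lists were added after values were seen. Alternatives were other filters, normalizations, variance models, arrays in the fit, the replicate number as a block, and each array left out. Replicate numbers did not pair arrays.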

Additional observations from a re-analysis of the deposited data

How the results depend on the processing

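Counts of called units moved with most settings. Against 193 higher and 847 lower, the 75th percentile filter gave 320 and 1423, quantile normalization 356 and 531, centring on the median 313 and 990, a trended robust variance 349 and 1330, all 36 arrays in the fit 554 and 1500, and the 6 compared arrays alone 27 and 117. Without a filter there were 151 and 657, and without units at the ceiling 288 and 1112. Leaving out 1 array gave 25 to 241 higher and 107 to 762 lower. Same-numbered arrays of different groups correlated between -0.071 and 0.076 in their deviations, so the numbers do not pair them; the replicate block gave 68 higher and 325 lower. Of 73 called named genes, 56 kept the call after quantile normalization, 73 after centring, 45 with the block, 23 with 6 arrays and 21 to 65 with 1 array left out. Among named genes the reversals were in uncalled ones: LINC00158 (-0.69 to 0.033 with 1 array left out, positive without CYTOR replicate 1) and PPBP (-0.052 to 0.48, negative without CYTOR replicate 3). The stretches were drawn from the same arrays at 0.5 or more from all genes, so a change of sign was unlikely from the start. No chromosome stretch changed sign under 10 settings chosen after seeing the data. Relative medians ran from -0.80 to -0.63 (chromosome 7), -0.80 to -0.61 (chromosome 9), -0.92 to -0.65 (chromosome 10) and -0.99 to -0.85 (USP14 to CABLES1). They ran from -0.64 to -0.32 (SMAD2 to ADNP2), 0.72 to 0.87 (CCNC to PDCD2) and 0.46 to 0.81 (H4C4 to H2AC13). SMAD2 to ADNP2 and H4C4 to H2AC13 thus fell short of the threshold of 0.5 under some settings. List medians that turned positive after quantile normalization included interferon response (0.02), B-cell receptor signalling (0.04), MHC class I (0.19) and MHC class II (0.25). Quantile normalization moved the median of expressed coding genes to -0.01, against -0.27 as deposited. The cause of the moved counts was not tested. Differences at the ceiling are bounds, and values near the array median are set by background.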
